A study of Rattus norvegicus and Mus musculus with 34 samples.

Results

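Neurotrophic factors, their receptors and genes of the repair Schwann cell were followed through the healing of a bone defect in the rat jaw, with and without its sensory nerve. The 8 genes were Bdnf, Ntf3, Gdnf, Artn, Ngfr, Gfra1, Gap43 and Sema3a, chosen by symbol from the 20022 genes of the rat tables. Their gene IDs in the tables are 24225, 81737, 25453, 362572, 24596, 25454, 29423 and 29751, in that order. In male wild-type Sprague-Dawley rats, 6 to 8 weeks old and free of specific pathogens, a periodontal bone defect was made in the mandible, and penicillin was given for 3 days. In the sensory nerve+ rats the inferior alveolar nerve, the sensory nerve of the lower jaw, was left intact, and in the sensory nerve- rats it was transected in the same operation with removal of a segment. Healing tissue was taken at days 3, 7 and 14 and sequenced in bulk, from 4 rats in each of the 6 groups except the intact group of day 3, which held 3. These groups are called intact and transected below, and rats are numbered within a group as in the labels. The tissue is labelled as mixed cells, and in bulk RNA fewer cells of a type and less RNA per cell cannot be told apart.

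Neurotrophins such as BDNF and neurotrophin 3 act through Trk receptor kinases and through the low-affinity receptor p75, which Ngfr encodes. GDNF and artemin are ligands of a second family that bind a GFRα co-receptor, of which Gfra1 encodes the one that prefers GDNF, and signal through the kinase RET. When axons are cut, Schwann cells of the distal stump shed their myelin, turn on Ngfr, Gdnf, Artn, Bdnf and Gap43 and become repair cells that support regrowing axons. GAP43 is a growth-associated protein of axon tips that repair Schwann cells also make, and SEMA3A is a secreted guidance cue that repels sensory axons through neuropilin and plexin receptors.

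Start-site sequences were matched for 5 of the 8 genes, Bdnf, Ntf3, Gdnf, Artn and Gfra1, with 12 start sites between them in RefSeq (assembly GRCr8). Those of Bdnf, a ligand that rose in the intact rats, and of Gdnf and Gfra1, a ligand and its co-receptor, are printed below, each as the 250 bases before the start site, and capitals mark an AP-1 motif, the DNA element bound by JUN, a regulator of the repair state. For Bdnf, which has 6 start sites, the one with the motif is shown.
Bdnf, chr3:116621721-116621970, plus strand: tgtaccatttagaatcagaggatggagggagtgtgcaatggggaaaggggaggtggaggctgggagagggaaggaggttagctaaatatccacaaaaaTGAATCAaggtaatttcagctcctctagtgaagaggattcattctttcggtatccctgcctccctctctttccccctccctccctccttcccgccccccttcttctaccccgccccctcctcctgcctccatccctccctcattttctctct
Gdnf, chr2:58621077-58621326, plus strand: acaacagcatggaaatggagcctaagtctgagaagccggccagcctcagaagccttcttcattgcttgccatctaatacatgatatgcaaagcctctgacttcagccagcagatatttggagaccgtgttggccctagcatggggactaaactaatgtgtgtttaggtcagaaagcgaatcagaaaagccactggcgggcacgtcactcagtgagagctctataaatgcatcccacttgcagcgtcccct
Gfra1, chr1:267555812-267556061, minus strand: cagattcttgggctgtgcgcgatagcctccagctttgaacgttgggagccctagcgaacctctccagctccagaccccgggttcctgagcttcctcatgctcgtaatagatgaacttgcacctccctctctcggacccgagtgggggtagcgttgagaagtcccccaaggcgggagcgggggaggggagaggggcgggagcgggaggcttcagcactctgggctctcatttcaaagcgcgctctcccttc
The AP-1 motif TGANTCA, searched on both strands from 250 bases before to 50 after each start site, was in 1 of the 12 windows of these genes and in 7.33% of the 33469 windows of all genes. The cyclic AMP element TGACGTCA was in 0 of the 12 and in 1.83% of all windows. These matches describe letters only, and no binding was measured.

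Libraries held between 14854389 and 18742274 expected counts, which are read counts in which a read that maps to several places is shared out. Levels are given in CPM, counts relative to the size of the library after scaling by the trimmed mean of M values, and they are compared between rats and not between genes. One library stood apart for these genes. In rat 2 of the transected day 3 group, Ngfr was at 613 CPM, Gfra1 at 324 and Gdnf at 34.6, against at most 8.53, 11.7 and 3.96 in the other rats of that group. In the same rat the 15 Schwann cell markers summed to 2679 CPM, against 123 to 254 in the other 3 rats. Sox10, the transcription factor that defines the Schwann lineage, was at 98.9 CPM against at most 0.28. Of the transcripts that axons carry, Nefl was at 26.8 CPM there and Nefm at 33.5, both named after their values were seen. Among axon genes tested both ways, the day 3 log2 change from intact rats was -1.01 with this rat and -1.02 without it for Prph. It was -0.25 and -0.21 for Tubb3, -0.19 and 0.002 for Nefh, and 0.92 and 0.24 for Uchl1. In this rat Bdnf, Artn and Ntf3 were at 0.285, 3.94 and 0 CPM. Whether nerve was taken with this tissue or its label is wrong was not tested, and the changes of Ngfr, Gfra1 and Gdnf and of the gene lists against this group are therefore given with and without it. Among the defining transcripts of sensory neuron bodies, Calca was at most at 0.34 CPM in the 23 rats. The transected rats of day 7 were deposited in a second table, and the effect of transection at day 7, like the steps to and from day 7 in transected rats, cannot be told apart from a difference of table.

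**Figure D1:**
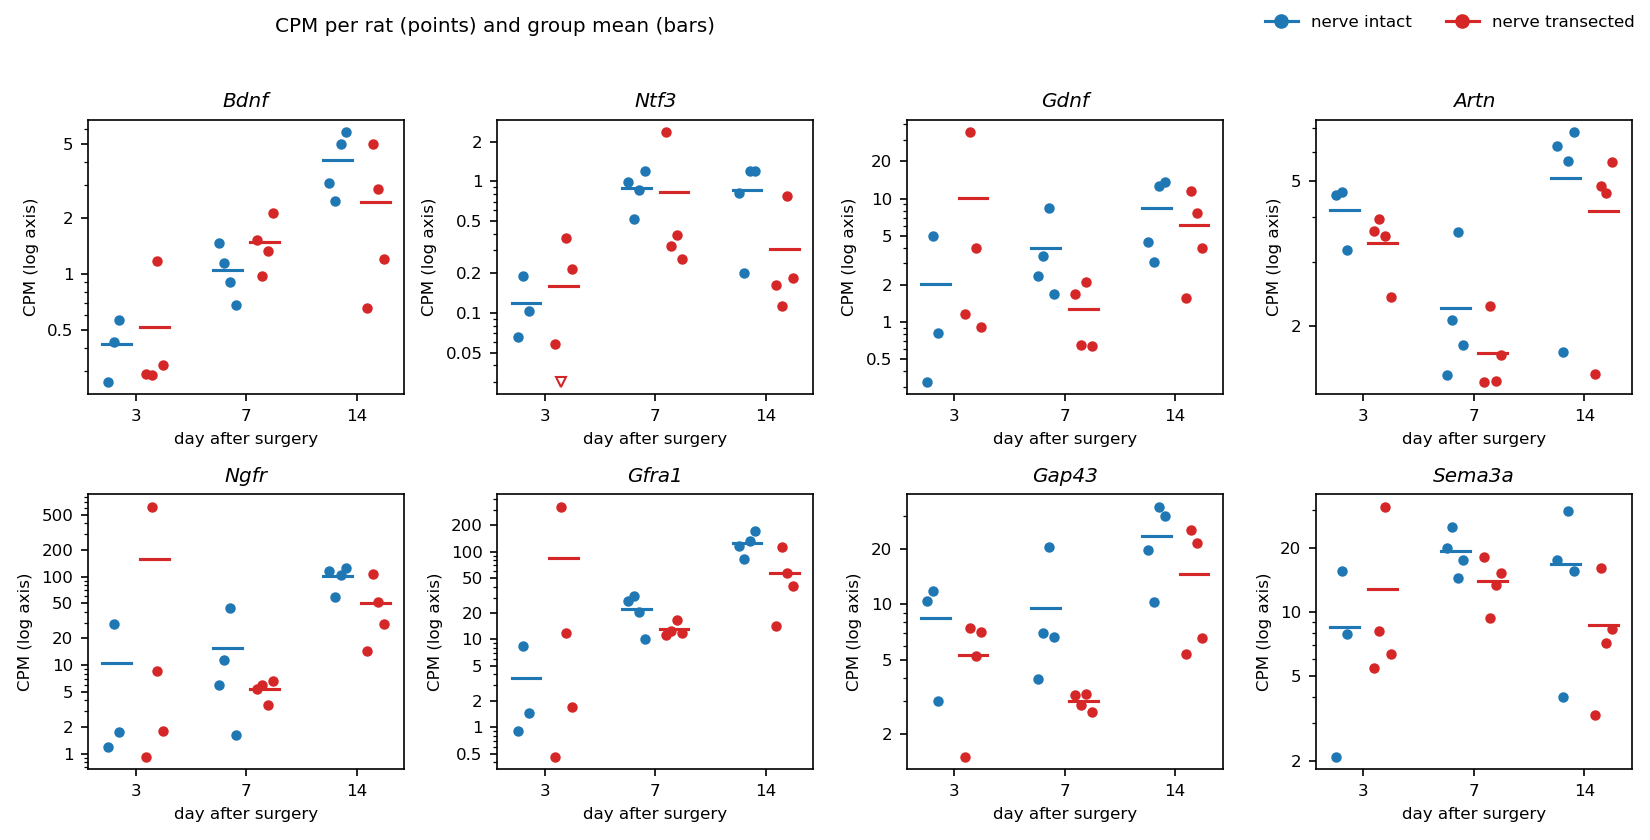
CPM of each of the 8 genes (log axis, a separate range for each gene) by day after surgery, with 1 point per rat and a bar at the group mean, blue for the intact and red for the transected nerve. An open triangle marks the 1 rat in which Ntf3 was at 0. Bdnf, Ngfr and Gfra1 lie higher in the intact rats at day 14 than at day 7, and rat 2 of the transected day 3 group lies far above its group in Ngfr, Gfra1 and Gdnf.

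The first question was how the 8 genes behaved as tissue with an intact nerve healed. Bdnf and Gfra1 rose between days 3 and 14, Ntf3 rose between days 3 and 7 from a few counts, and Ngfr and Gap43 were at higher means at day 14 without passing the test. With edgeR's quasi-likelihood test at a Benjamini-Hochberg adjusted p under 0.05, 2 of 8 genes rose from day 3 to day 14, where 5.78% of the 15065 genes tested were called. From day 3 to day 7 it was 1 of 8, with 6.67% of 15016 genes called. Between days 7 and 14 it was 0 of 8, with 3 of 14867 genes (0.0202%) called. At an unadjusted p under 0.05 there were 4 of the 8 in that last step, and 1401 of the 14867 genes. DESeq2 called 2 of the 8 there, Bdnf and Gfra1, and over all genes it called more than edgeR, with the count in the last section.

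Among the ligands, Bdnf was at 0.262, 0.429 and 0.565 CPM in the 3 intact rats of day 3. At day 7 it was at 1.47, 1.15, 0.898 and 0.678 CPM in rats 1 to 4, and at day 14 at 3.06, 2.45, 5.00 and 5.79 CPM. No value of a later day overlapped with an earlier day. The change from day 3 to day 14 was 9.62-fold (log2 fold change 3.27, SE 0.49, adjusted p = 0.0301). The step from day 3 to day 7 was 1.36 on the log2 scale (SE 0.45, adjusted p = 0.119), and that from day 7 to day 14 was 1.96 (SE 0.39, adjusted p = 0.252).

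Ntf3, which encodes neurotrophin 3, the ligand of the receptor kinase that Ntrk3 encodes, was close to the limit of detection at day 3, with 0.065, 0.190 and 0.103 CPM from 7 counts over 3 rats. At day 7 the intact rats held 0.980, 0.521, 0.855 and 1.19 CPM, and at day 14 0.820, 0.200, 1.21 and 1.20 CPM. All rats of both later days lay above all rats of day 3. At day 14 this rested on rat 2, at 0.200 CPM from 4 counts, against 0.190 CPM from 4 counts in rat 2 of day 3. The rise from day 3 to day 7 was 2.83 on the log2 scale (SE 0.55, adjusted p = 0.0293). The call was lost with library totals (adjusted p = 0.0535), with all rats in 1 fit (0.0936) and with a replicate block (0.211), and a stricter filter left the gene out. As a ratio of summed counts, 64 against 7, it was 6.82-fold with an exact 95% interval of 3.13 to 17.6 that covers counting error only. From day 3 to day 14 the log2 fold change was 2.74 (SE 0.77, adjusted p = 0.0759).

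Ntf3 moved together with skeletal muscle transcripts. The 12 muscle markers summed to 33.8 to 84.0 CPM in the intact rats of day 3 and to 6513 to 24209 CPM at day 7. In that step 12 of the 12 rose, where 4.88% of all genes tested did. Acta1, the actin of skeletal muscle, was at 9.81 to 26.3 CPM at day 3 and at 2266 to 8570 CPM at day 7. In rat 2 of day 14, where Ntf3 was at 0.200 CPM, the muscle sum was 281 CPM, against 15853 to 30572 in the other 3 rats. Over all 23 rats, the correlation between Ntf3 and the mean of the muscle markers on the log2 scale was r = 0.843 (Spearman's rho 0.832), across rats that also share days and groups. The part of muscle content in the Ntf3 result was not tested. The 3 genes whose log2 levels were most like those of Ntf3 over the 23 rats were Abcc9 (r = 0.928), Dyrk1b (r = 0.917) and Asb2 (r = 0.915).

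**Figure D2:**
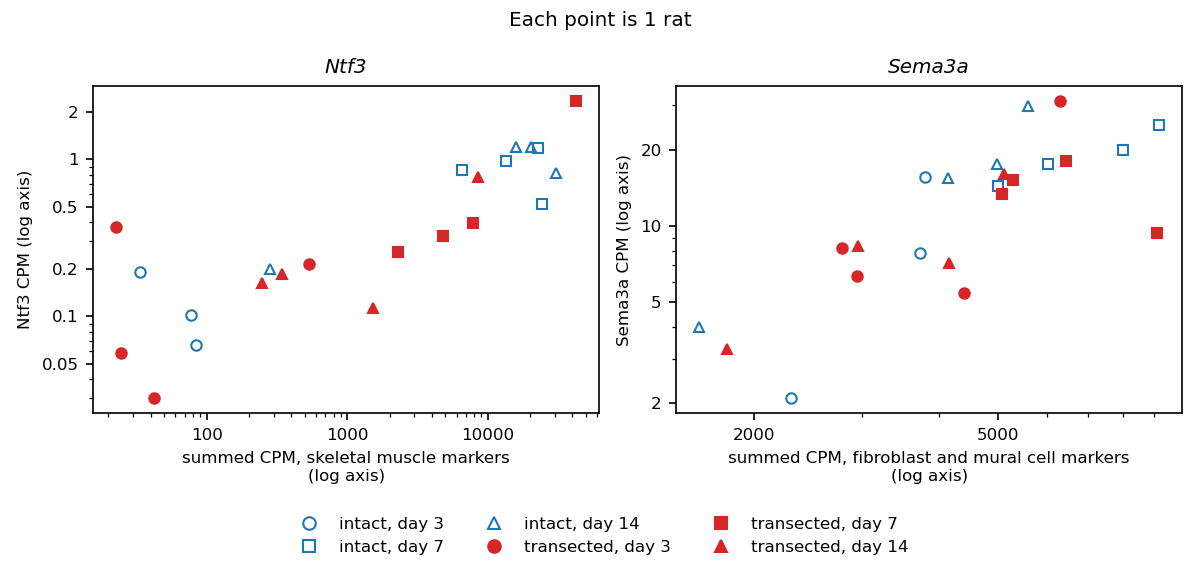
Left, Ntf3 CPM against the summed CPM of 12 skeletal muscle markers. Right, Sema3a CPM against the summed CPM of 9 fibroblast and mural cell markers (all axes log). Each point is 1 rat, open blue for intact and filled red for transected, and the 1 rat with Ntf3 at 0 is drawn at the lower edge. Ntf3 is high in the rats with a high muscle sum, up to 2.36 CPM where the sum is 42415.

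Gdnf and Artn, the ligands of the GDNF family, did not pass the test in any step of the intact rats. Gdnf was at 0.327 to 5.00 CPM at day 3, 1.70 to 8.38 at day 7 and 3.05 to 13.6 at day 14, and each day overlapped with the next. Artn was at 3.24 to 4.67 CPM at day 3, 1.47 to 3.63 at day 7 and 1.70 to 6.82 at day 14, with its lowest mean at day 7. The log2 change of Artn was -0.83 from day 3 to day 7 (SE 0.40, adjusted p = 0.250) and 1.19 from day 7 to day 14 (SE 0.49, adjusted p = 0.519).

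Of the receptors, Gfra1 was at 0.916, 8.48 and 1.44 CPM at day 3, at 27.4, 31.0, 20.4 and 10.1 CPM at day 7, and at 115, 82.7, 132 and 170 CPM at day 14. Each day lay wholly above the day before. From day 3 to day 14 Gfra1 rose 34.0-fold (log2 fold change 5.09, SE 0.89, adjusted p = 0.0373). The steps were 2.66 on the log2 scale from day 3 to day 7 (SE 0.84, adjusted p = 0.105) and 2.51 from day 7 to day 14 (SE 0.37, adjusted p = 0.105).

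Ngfr was at 1.18, 29.1 and 1.75 CPM at day 3, and rat 2 was the high one. At day 7 it was at 5.93, 11.4, 44.3 and 1.61 CPM, and at day 14 at 114, 58.7, 105 and 126 CPM, so that only day 14 was clear of both earlier days. The log2 fold change from day 7 to day 14 was 2.66 (SE 0.88, adjusted p = 0.483), and from day 3 to day 14 it was 3.22 (SE 1.16, adjusted p = 0.127). The intact rats with the highest Ngfr at each early day also held tooth transcripts. Over the 23 rats of both groups, r of Ngfr with the mean log2 level of the tooth markers was -0.062 (Spearman's rho -0.277). That correlation runs across days and does not describe rats within a day. In the intact rats the median sum of the tooth markers was 4417, 167 and 4.68 CPM at days 3, 7 and 14. The 7 tooth and epithelium markers summed to 4417 CPM in rat 2 of day 3 and to 1070 CPM in rat 3 of day 7, although rat 3 of day 3, with Ngfr at 1.75 CPM, had the largest sum, 23370. The part of tooth tissue in the Ngfr values was not tested.

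Gap43 was at 10.5, 11.8 and 3.03 CPM at day 3 and at 19.6, 10.3, 33.7 and 30.1 CPM at day 14, with an overlap between the days (log2 fold change 1.48, SE 0.58, adjusted p = 0.153). Sema3a was at 2.09, 15.6 and 7.86 CPM at day 3 and at 19.9, 24.9, 14.4 and 17.5 CPM at day 7, and its change of 1.22 on the log2 scale did not pass the test (SE 0.59, adjusted p = 0.253).

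From day 3 to day 14, groups of intact rats were fully separated for Bdnf, Ntf3, Ngfr and Gfra1. That is 4 of 8 genes higher, where 10.7% of the tested genes were. For Ntf3 the nearest rats, rat 2 of day 14 and rat 2 of day 3, were at 0.200 and 0.190 CPM, each from 4 counts. In the step from day 3 to day 7, the separated genes were Bdnf, Ntf3 and Gfra1, all higher, against 12.7% of all tested genes. Between days 7 and 14 they were Bdnf, Ngfr and Gfra1, all higher, against 2.35%.

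Calls in the intact rats leaned on single animals. With 1 rat left out in turn, Bdnf kept its call from day 3 to day 14 only without rat 2 of day 14 (adjusted p = 0.0058), and Gfra1 only without that rat (adjusted p = 0.0134) or without rat 2 of day 3 (adjusted p = 0.0422). Otherwise the adjusted p ranged up to 0.112 for Bdnf and 0.128 for Gfra1, with log2 fold changes of 3.03 to 3.57 and 4.64 to 6.74 over all of these fits. Ntf3 kept its call from day 3 to day 7 only without rat 2 of day 3 (adjusted p = 0.0453). It passed from day 3 to day 14 without rat 2 of day 14 (adjusted p = 0.0126). In each of these steps, 3 of the 7 fits left Ntf3 out by the filter. Without rat 2 of day 3, Gfra1 also passed from day 3 to day 7 (adjusted p = 0.0221) and Ngfr from day 3 to day 14 (log2 fold change 6.12, adjusted p = 0.0422).

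Schwann cell markers rose over the same days in the intact rats. Of the 15 markers, 8 rose from day 3 to day 14, where 2.69% of all genes tested rose and 3.09% fell. Sox10 changed by 7.98 on the log2 scale in that step (SE 0.70, adjusted p = 0.0165). Sox10 was at 0.13 to 0.19 CPM at day 3, 0.42 to 4.37 at day 7 and 15.5 to 69.8 at day 14. In the list of the repair Schwann programme, 4 of the 12 tested genes rose from day 3 to day 14, namely Sox2, a transcription factor that holds Schwann cells immature (log2 fold change 4.80, SE 0.56), L1cam (3.68, SE 0.54), Btc (6.37, SE 1.11) and Sox4 (0.80, SE 0.13). Sox2 was the one gene of that list called from day 7 to day 14 (log2 fold change 4.73, SE 0.44, adjusted p = 0.0381). The list's median was 0.50 on the log2 scale and that of the Schwann markers was 4.29, while the median over all genes tested was 0.00306. Of the other lists, 9 of 12 muscle markers rose from day 3 to day 14, 1 of 8 tested axon transcripts (Tubb3), 1 of 10 osteoblast markers (Spp1), 2 of 5 tooth and epithelium markers (Amelx and Ambn) and 1 of 6 macrophage markers (Mrc1) fell, and 0 of 9 fibroblast and mural cell markers passed. What the Schwann cell content contributed to the changes of Bdnf, Ngfr and Gfra1 was not tested.

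Other genes of the same pathways were taken from fixed lists. Of all genes tested in the intact rats, 4.88% rose and 1.79% fell from day 3 to day 7. From day 3 to day 14, 2.69% rose and 3.09% fell. In the neurotrophin list of 9 genes, Bex1, an adaptor that binds p75, rose from day 3 to day 7 (log2 fold change 4.14, SE 0.55), and Maged1, another p75-binding adaptor, fell by 1.28 on the log2 scale from day 3 to day 14 (SE 0.28, adjusted p = 0.0491). None of the 7 tested genes of the GDNF family list passed from day 3 to day 14, with a median of 0.43 on the log2 scale. In the class 3 semaphorin list of 13 genes, Sema3g (1.64, SE 0.31) and Sema3b (3.31, SE 0.65) rose from day 3 to day 14, Plxna1, a plexin receptor, fell by 1.12 on the log2 scale (SE 0.24), and Sema3g (1.15, SE 0.20) and Plxna2 (1.13, SE 0.21) rose from day 3 to day 7.

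In the transected rats the same question met the library that stood apart. With all rats in, 0 of 7 tested genes passed in any of the 3 steps, Ntf3 being left out by the filter on low counts. Of all genes tested, 23.5% were called from day 3 to day 14, 10.5% from day 3 to day 7 and 0.0138% from day 7 to day 14. At an unadjusted p under 0.05 there were 1, 4 and 5 of the 7 genes in these 3 steps. Of all genes there were 5610 of 14449, 4193 of 14576 and 3397 of 14447. DESeq2 gave a p-value to 6, 5 and 7 of the genes and called 1 (Bdnf), 2 (Gdnf and Artn) and 5 (Gdnf, Artn, Ngfr, Gfra1 and Gap43). Over all genes, DESeq2 called more than edgeR in each of these steps, with the counts in the last section. Without rat 2 of day 3 it called 2 (Ngfr and Gfra1) from day 3 to day 14 and 1 (Artn) from day 3 to day 7.

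Bdnf was at 0.290, 0.285, 1.17 and 0.321 CPM at day 3, where rat 3 was the high one, at 0.976 to 2.12 CPM at day 7 and at 0.655, 5.02, 2.87 and 1.20 CPM at day 14. Its log2 fold change from day 3 to day 14 was 2.16 (SE 0.76, adjusted p = 0.0737), and from day 3 to day 7 1.47 (SE 0.56, adjusted p = 0.129). Without rat 3 of day 3, Bdnf passed in both (log2 fold change 2.96, adjusted p = 0.0369, and 2.28, adjusted p = 0.0285).

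Ngfr was at 5.34, 5.91, 3.57 and 6.56 CPM at day 7 and at 14.6, 106, 51.8 and 29.3 CPM at day 14, with no overlap (log2 fold change 3.24, SE 0.58, adjusted p = 0.104). Gap43 was at 3.26, 2.87, 3.27 and 2.64 CPM at day 7 and at 5.40, 25.4, 21.4 and 6.57 CPM at day 14, again without overlap (log2 fold change 2.28, SE 0.52, adjusted p = 0.104). Without rat 2 of day 14, Ngfr passed in this step (adjusted p = 0.0304). Gfra1 was at 11.2 to 16.5 CPM at day 7 and at 14.1, 114, 57.9 and 40.9 CPM at day 14 (log2 fold change 2.11, SE 0.54, adjusted p = 0.107). Gdnf changed by 2.26 on the log2 scale (SE 0.66, adjusted p = 0.123) and Artn by 1.29 (SE 0.42, adjusted p = 0.140). The 2 genes without overlap were both higher, where 5.82% of the tested genes were.

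Against day 3 the direction depended on rat 2 of that group. Ngfr at day 14 was -1.69 on the log2 scale relative to day 3 with that rat (SE 1.78, adjusted p = 0.514) and 3.66 without it (adjusted p = 0.0552). For Gfra1 the values were -0.63 (SE 1.62, adjusted p = 0.803) and 3.52 (adjusted p = 0.088), and for Gdnf -0.78 (SE 1.16) and 1.54. From day 3 to day 7 Ngfr was at -4.90 (SE 1.99) with that rat and 0.46 (SE 0.73) without it, Gfra1 at -2.72 (SE 1.66) and 1.44 (SE 0.94), and Gdnf at -3.01 (SE 1.22) and -0.69 (SE 0.70). In 1 fit of all other rats, chosen after the data were seen, Ngfr (3.73, adjusted p = 0.0338), Gfra1 (3.60, adjusted p = 0.0122) and Bdnf (2.02, adjusted p = 0.0312) passed. Artn was at 3.66, 3.94, 3.54 and 2.41 CPM at day 3 and at 1.41, 2.28, 1.42 and 1.67 CPM at day 7, a separation in the lower direction that 12.5% of the tested genes showed (log2 fold change -1.01, SE 0.28, adjusted p = 0.0562). Gap43 at day 14 was 1.41 on the log2 scale above day 3 (SE 0.65, adjusted p = 0.147).

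Other genes of the GDNF family pathway were measured in the transected rats as well. Gfra3, which encodes the co-receptor that prefers artemin, rose from day 3 to day 14 by 3.01 on the log2 scale (SE 0.70, adjusted p = 0.0204), and Nrtn, which encodes the ligand neurturin, by 2.30 (SE 0.64, adjusted p = 0.0361), 2 of 6 tested genes of that list, where 23.5% of all genes were called. Without rat 2 of day 3 neither passed (3.11, adjusted p = 0.0526, and 2.22, adjusted p = 0.0921). Gfra3 was at 1.23 to 1.80 CPM at day 3 and at 24.9, 1.64, 11.8 and 11.1 CPM at day 14. Ret, which encodes the shared signalling kinase, was at 103, 2.93, 66.8 and 40.7 CPM at day 14 and did not pass the test. Rat 2 of day 14 was the lowest of its group in both and the highest in Ngfr, Gfra1, Gdnf and Gap43. In the class 3 semaphorin list, Sema3g (1.65, SE 0.41) and Plxna2 (0.96, SE 0.27) rose from day 3 to day 14, Plxna1 fell by 1.08 on the log2 scale (SE 0.19) and Sema3c by 1.67 (SE 0.36), which is 4 of 13. Without rat 2 of day 3 Plxna1 and Sema3c, 2 of 13, still passed, where 12.4% of all genes did. Nrp1, a neuropilin receptor of SEMA3A, rose from day 3 to day 7 (0.70, SE 0.18) together with Plxnd1 (0.56, SE 0.14), and without the same rat neither passed (adjusted p = 0.118 and 0.0736), where 3.45% of all genes did. Maged1 fell by 1.13 on the log2 scale from day 3 to day 14 (SE 0.33) and fell by 1.29 without the same rat (SE 0.32, adjusted p = 0.0451).

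The Schwann lists turned with rat 2 of the transected day 3 group as Ngfr and Gfra1 did. With it, 0 of 12 tested Schwann cell markers rose and 2 fell from day 3 to day 14, where 14.6% of all genes fell. They were Egr2, which fell by 1.54 on the log2 scale (SE 0.23), and Erbb3, which fell by 2.27 (SE 0.68), and the list's median was -1.07. Without it 4 of 12 rose and Egr2 fell, with a median of 2.27, where 3.43% of all genes rose. The 4 were Sox10 (log2 fold change 5.84, SE 0.81, adjusted p = 0.0108), Cdh19 (5.98, SE 0.91), Foxd3 (6.58, SE 1.05) and Mbp (2.49, SE 0.24). Of the repair Schwann list, 0 of 11 tested genes passed with that rat, with a median of -0.23, and 2 of 11 rose without it, Sox2 (5.70, SE 1.28) and L1cam (2.72, SE 0.47), with a median of 0.26. Mbp, which encodes a protein of myelin, also rose from day 7 to day 14 (2.27, SE 0.21).

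The main question of the design was whether transection of the nerve changed these genes at a given day. None of these genes passed the test at days 3, 7 or 14, where 6, 8 and 7 of the 8 were tested. Nor did any of the 14695, 14716 and 14610 genes tested there (0% called in each). At an unadjusted p under 0.05 there were 0 of 6, 3 of 8 and 0 of 7 of these genes, and 122, 215 and 1362 of all genes. DESeq2 gave a p-value to 4, 8 and 7 of the 8 at these days and called 0 of them at each, and 0, 1 and 95 of all genes.

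At day 3, Bdnf and Ntf3 were left out by the filter on low counts. The largest differences were those of Gfra1, 4.50 on the log2 scale (SE 2.36), Ngfr, 3.82 (SE 2.57), and Gdnf, 2.26 (SE 1.59), each with an adjusted p of 1. Without rat 2 they were 0.34, -1.54 and -0.066. The intact and transected groups overlapped for all 8 genes, where 1.61% of the tested genes did not overlap.

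At day 7 the fold changes were negative for 7 of 8 genes, with a median of -0.61 on the log2 scale. That of Ntf3 was -0.09 and ran from -1.42 to 0.20 when single rats were left out, with a positive sign in 4 of those 8 fits, so that 6 genes were negative there. Gap43 was at 3.97, 7.03, 20.4 and 6.69 CPM in the intact rats and at 3.26, 2.87, 3.27 and 2.64 CPM in the transected rats. It was the only one of the 8 whose groups did not overlap, lower in the transected rats as were 0.394% of the tested genes. The log2 fold change was -1.69 (SE 0.50, adjusted p = 1.00), and -0.97 without intact rat 3. Gdnf was at 2.35, 3.44, 8.38 and 1.70 CPM in the intact and at 1.69, 0.650, 2.10 and 0.643 CPM in the transected rats (log2 fold change -1.66, SE 0.64, and -0.97 without intact rat 3). Ngfr (-1.61, SE 0.85) and Gfra1 (-0.77, SE 0.33) were in the same direction, and Bdnf was at 0.48 (SE 0.37). Without intact rat 3 the value for Ngfr was -0.25 and that for Gfra1 -0.81. Intact rat 3 was the highest of its group in Gap43, Gdnf and Ngfr, and it also had the largest sum of tooth markers of that group, 1070 CPM against 1.7 to 331, and Ntrk3 at 67.6 CPM against 4.24 to 7.94. Over the 23 rats, r with the mean log2 level of the tooth markers was -0.173 for Gap43, 0.098 for Gdnf and -0.062 for Ngfr. These values run across days, over which the tooth sum fell in the intact rats, and do not describe rats within a day. The part of tooth tissue in these differences was not tested.

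**Figure D3:**
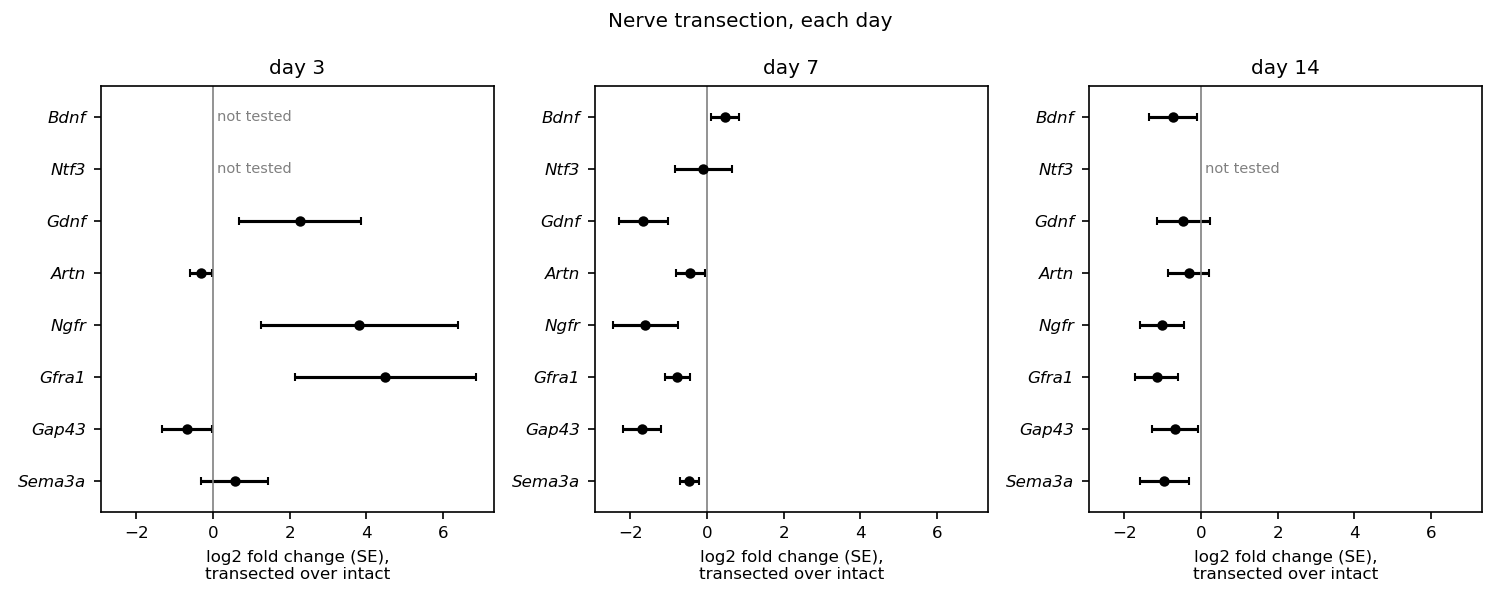
Log2 fold change of each gene, transected over intact, at days 3, 7 and 14, with error bars of 1 SE from edgeR (4 rats per group, 3 in the intact group of day 3). Points lie to the left of 0 for 7 of 8 genes at day 7 and for 7 of 7 tested genes at day 14, and the 3 points far to the right at day 3 rest on 1 rat.

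At day 14 the fold changes of all 7 tested genes were negative, with a median of -0.73 on the log2 scale, and none passed. Gfra1 was at 82.7 to 170 CPM in the intact and at 14.1 to 114 CPM in the transected rats (log2 fold change -1.15, SE 0.56, adjusted p = 0.519). Ngfr differed by -1.01 (SE 0.57, adjusted p = 0.538), Sema3a by -0.95 (SE 0.64), Bdnf by -0.73 (SE 0.62), Gap43 by -0.67 (SE 0.59), Gdnf by -0.46 (SE 0.69) and Artn by -0.32 (SE 0.53). In all 7 the groups overlapped, where 3.37% of the tested genes did not, and transected rat 2 was within the range of the intact rats in each. Ntf3, left out by the filter, was at 0.164, 0.113, 0.773 and 0.185 CPM in the transected rats against 0.200 to 1.21 CPM in the intact rats. When libraries were scaled by their totals instead, the median fold change of all genes at day 14 moved from 0.03 to -0.42 on the log2 scale. Relative to that median, the median of the 7 genes was -0.76 with the main scaling and -0.58 with library totals.

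Over the 3 days together, 0 of 8 genes passed for transection and 0 of 8 for the interaction of transection with day. Of all 15858 genes tested, 0 passed (0% in both). Both fits hold the transected rats of day 7, and that part of them cannot be told apart from a difference of table. At an unadjusted p under 0.05 it was 1 of the 8 in each, Gap43 for transection (log2 fold change -1.01, SE 0.36, adjusted p = 0.860) and Gfra1 for the interaction (adjusted p = 0.998). Without rat 2 of the transected day 3 group it was 2 for transection, Gap43 (-1.08, SE 0.36) and Ngfr (-1.34, SE 0.56, adjusted p = 0.827 for both), and 0 for the interaction. DESeq2 called 0 of the 7 genes it tested for transection and 0 of the 8 for the interaction. The pathway lists and the Schwann, axon, muscle, osteoblast, fibroblast, tooth and macrophage lists held 0 called genes in each transection comparison.

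Schwann cell markers differed between the groups at day 14 in the same direction as Ngfr and Gfra1. All 15 had negative fold changes, 0 passed, and the median was -1.86 on the log2 scale. Their sum was 374 to 3154 CPM in the intact and 231 to 406 CPM in the transected rats. Sox10 was at 69.8, 15.5, 35.4 and 46.8 CPM in the intact and at 4.01, 20.4, 16.3 and 6.20 CPM in the transected rats (log2 fold change -1.84, SE 0.63, adjusted p = 0.519). Other cell types differed there too, with 0 genes called. The 12 muscle markers were all negative (median -2.62), with sums of 281 to 30572 CPM in the intact and 250 to 8455 CPM in the transected rats, and 8 of 9 fibroblast and mural cell markers were negative (median -0.25). The 10 osteoblast markers were all positive (median 1.35, sums of 13412 to 32787 and 20986 to 71611 CPM), as were 5 of 6 macrophage markers (median 0.65). The part of these cell types in the differences of the 8 genes was not tested.

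**Figure D4:**
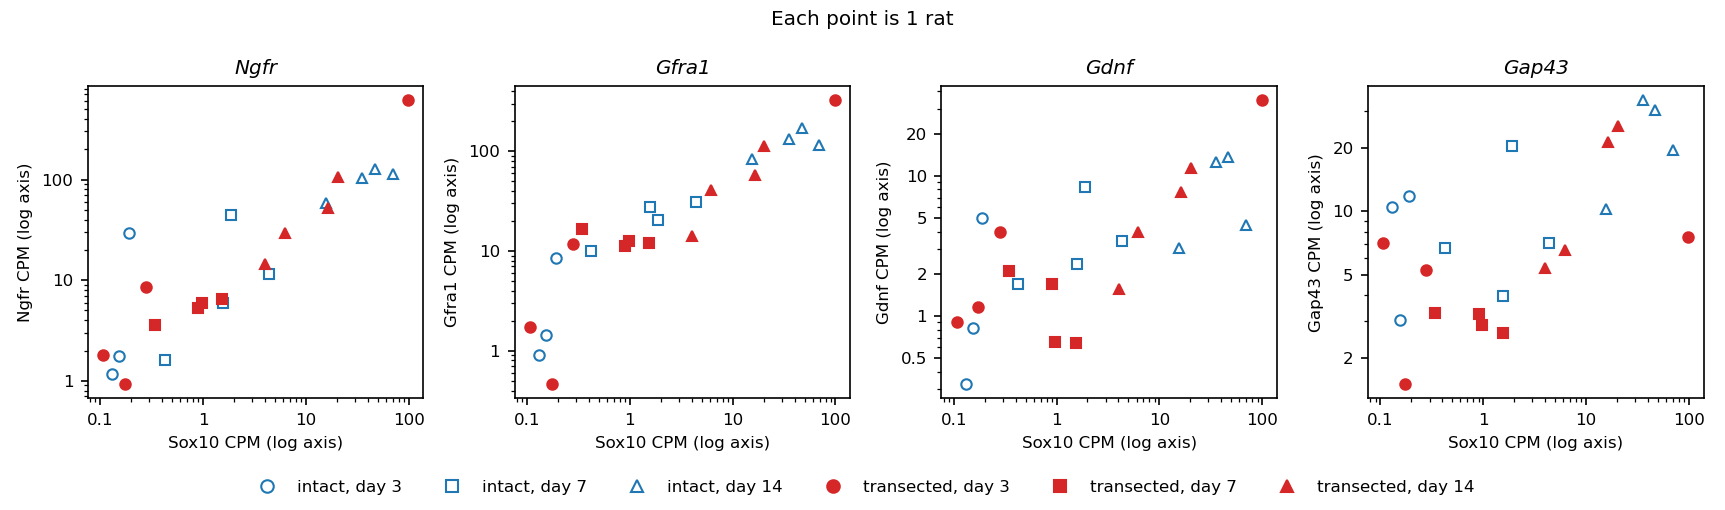
CPM of Ngfr, Gfra1, Gdnf and Gap43 against CPM of Sox10 (all axes log), with 1 point per rat, open blue for intact and filled red for transected, and the day by shape. Ngfr and Gfra1 are high in the rats with high Sox10, and rat 2 of the transected day 3 group is at the upper right with Sox10 at 98.9 CPM, but not in Gap43.

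Across the 23 rats, Ngfr and Gfra1 followed the mean of the Schwann markers on the log2 scale (r = 0.820 and 0.822, Spearman's rho 0.830 and 0.909), and r was 0.778 and 0.791 without the library that stood apart. For Gdnf r was 0.689, for Gap43 0.590 and for Bdnf 0.550, and without that library 0.612, 0.653 and 0.784. Other lists were nearer for several genes. With the repair Schwann list r was 0.869 for Ngfr, 0.791 for Gdnf and 0.612 for Gap43. For Bdnf it was 0.642 with the class 3 semaphorin list and 0.611 with the muscle list, and 0.714 and 0.574 without that library. For Gdnf it was 0.708 with the semaphorin list, and for Gap43 -0.657 with the macrophage list. The rats share days and groups, so these values are descriptions. Sema3a followed the mean of the fibroblast and mural cell markers (r = 0.777, rho 0.752) and that of the other class 3 semaphorin genes (r = 0.818, rho 0.722). Artn was nearest to the repair Schwann list (r = 0.620, and 0.707 without that library).

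Genes most like each of the others, by Pearson's r of log2 CPM over the 23 rats, were Celf4 (0.941), Sox2 (0.933) and Gfra1 (0.907) for Ngfr, and Sema3b (0.953), Rhpn1 (0.951) and Lgi4 (0.934) for Gfra1. For Gdnf they were Sema4c (0.909), Ngfr (0.887) and Otud7b (0.861), and for Bdnf Ptprt (0.896), Selp (0.867) and LOC100911413 (0.846). For Gap43 they were Stc2 (0.786), Bmp6 (0.780) and Tmem74b (0.765), for Artn Col7a1 (0.789), Nacad (0.755) and Fads2 (0.746), and for Sema3a Ttc23 (0.876), Akap11 (0.868) and Fibin (0.866).

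Relative to Sox10, which had the lower mean in the transected rats, the order of the groups at day 14 was another one for many genes. This quantity, a gene's CPM over the Sox10 CPM of the same rat, was chosen after the values were seen and is described without a test. For Gap43 it was 0.280 to 0.951 in the intact and 1.06 to 1.35 in the transected rats, for Gdnf 0.0634 to 0.357 and 0.388 to 0.642, for Artn 0.0893 to 0.161 and 0.238 to 0.910, and for Bdnf 0.0439 to 0.158 and 0.163 to 0.247. All 4 were higher in the transected rats without overlap, as were 15.4% of 14609 genes, and Sox10 itself had the lower mean there. For Ngfr the ranges were 1.64 to 3.78 and 3.17 to 5.19, and for Gfra1 1.64 to 5.33 and 3.51 to 6.60. For Sema3a they were 0.251 to 0.843 and 0.439 to 1.34, and for Ntf3 0.0118 to 0.0341 and 0.0055 to 0.0473, with overlap in each of these genes. Lower without overlap in the transected rats were 9 genes (0.0616%), among them the myelin genes Mag, Pmp2, Ncmap, Gldn and Cldn19, and 0 of the 8.

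**Figure D5:**
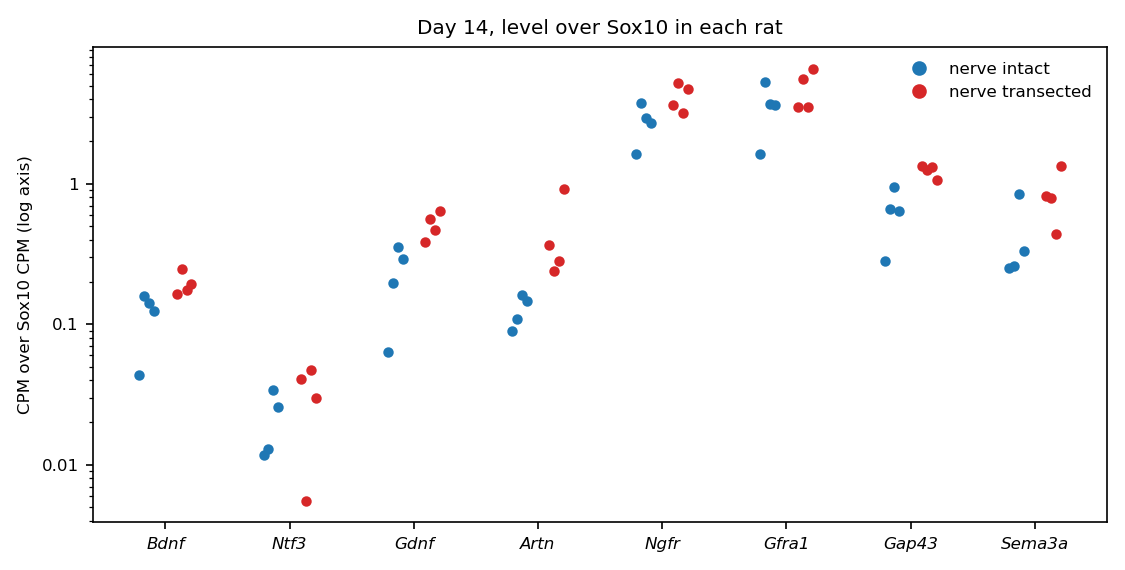
CPM over the Sox10 CPM of the same rat at day 14 (log axis) for the 8 genes, with 1 point per rat, blue for intact and red for transected. The groups are apart for Bdnf, Gdnf, Artn and Gap43, higher in the transected rats.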

How the data were processed

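RNA of periodontal healing tissue from 23 rats was sequenced on a DNBSEQ platform. Per the labels and the processing notes, reads were aligned with HISAT to mRatBN7.2, and Bowtie2 is also named; the counting program is not given in the sources used here. The authors deposited expected counts per gene in 2 tables, in which 37.0% of values were whole. Columns were matched to rats by title, and 0 sample columns were left unused. Macrophage cell line samples and the other supplementary files were not used here.

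Expected counts were rounded to whole numbers. Each comparison was fitted on its own 2 groups, and the pooled and interaction fits on all 23 rats, with filterByExpr (minimum count 10), TMM scaling and the quasi-likelihood test of edgeR 4.0.16 in R 4.3.3, as transected over intact or later over earlier day. Adjusted p is Benjamini-Hochberg over all genes tested, with a threshold of 0.05. SEs were derived from the F statistic. CPM per rat used TMM factors over all 23 rats, and log2 CPM used a prior count of 2. Library totals ran from 14854389 to 18742274, so genes under about 3 counts per library could not be told from 0.

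The 8 genes, the pathway and cell type lists and the tests were chosen with earlier results of these data known. Named in the text are the 8 genes, at most 4 called genes of a pathway list per comparison, at most 4 abundant genes of a cell type list with Sox10, Calca and Acta1 (another gene of that rule is not reported here), and the 3 genes most like each of the 8. Some marker genes (such as Nefl, Nefm, Ntrk3, Ret and the genes lower relative to Sox10) were named after their values were seen. Pairs of libraries in a group differed by at least 48.3 times the sampling noise (chi-square per degree of freedom), so each rat was counted once. Alternatives were other scalings, filters, DESeq2 1.42.0, a fit of all rats, a replicate block and 1 rat left out. Start-site sequences were from RefSeq (GRCr8), a build other than that of the counts, and its gene coordinates were not otherwise used. Figures were drawn with matplotlib 3.10.9 in Python 3.11.15.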

Additional observations from a re-analysis of the deposited data

Results flagged for a closer look

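In the 40 sets of 1 gene in a group of 4 rats, 7 held a highest rat set apart from the next. Its gap exceeded 0.829 of the range (Dixon's test at the 95% level). Chance flags about 5% of sets where values are independent and normally distributed. Here CPM was used without a log and the sets share rats, so that rate need not hold. Rat 2 of the transected day 3 group was set apart in 3 genes, Ngfr at 613 CPM (next rat 8.53), Gfra1 at 324 CPM (next 11.7) and Gdnf at 34.6 CPM (next 3.96). Rat 3 of the same group was set apart in Bdnf, at 1.17 CPM (next 0.321), and Sema3a, at 31.1 CPM (next 8.17), and its tooth and epithelium markers summed to 12021 CPM, against 32.4 to 459 in the other 3 rats. Ntf3 was set apart in rat 1 of the transected day 7 group, at 2.36 CPM (next 0.391), where the muscle markers summed to 42415 CPM against 2299 to 7878. It was also set apart in rat 3 of the transected day 14 group, at 0.773 CPM (next 0.185). The muscle sum was 8455 CPM there, against 250 to 1536. This Ntf3 value was 7 counts, against 2 in each other rat of the group, where under about 3 counts could not be told from 0. The part of muscle, tooth or nerve tissue in these values was not tested.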

How the results depend on the processing

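For transection at each day, pooled and in interaction with day, 0 of the 8 genes were called under each alternative run, though not all 8 could be tested in each. From day 3 to day 7 in intact rats the count was 0 with library totals, a stricter filter (CPM above 1), all rats in 1 fit or all but transected day 3 rat 2 (an alternative chosen after seeing the data), and 2 with DESeq2 (Ntf3 and Gfra1). DESeq2 called 2 from day 7 to day 14 in intact rats (Bdnf and Gfra1). In transected rats it called 2 of the 5 genes with a p-value from day 3 to 7, 5 of 7 from day 7 to 14 and 1 of 6 from day 3 to 14. All rats in 1 fit gave 1 in each transected step (Ngfr, Gap43 and Bdnf, in that order), and all but the rat named gave 1 from day 7 to 14 (Gap43) and 3 from day 3 to 14 (Bdnf, Ngfr and Gfra1). With 1 rat left out, counts ran from 0 to 2 (intact, day 3 to 7), 0 to 3 (intact, day 3 to 14) and 0 to 1 (each transected step). The cause was not tested.

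Replicate numbers were not used to pair the rats in the main fits. The mean correlation of same-numbered deviations between intact and transected rats was 0.178 at day 7 and 0.019 at day 14. For other pairs it was -0.062 and -0.017. Of the same-numbered pairs, 3 of 4 and 1 of 4 were above 0.1. With a replicate block the counts were 0 from day 3 to 7 and 0 from day 3 to 14 in intact rats, and 122 and 0 of all genes were called there.

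DESeq2 without transected day 3 rat 2 (also chosen after seeing the data) called 1 from day 3 to 7 and 2 from day 3 to 14 in transected rats, with changed sign for Gdnf at day 3 (-0.056), Ngfr from day 3 to 7 (0.50), and Gdnf (1.61), Ngfr (3.74) and Gfra1 (3.62) from day 3 to 14. Without transected day 3 rat 2 in the fit of all rats, fold changes turned sign at day 3 for Gdnf (-0.032) and Ngfr (-1.50), from day 3 to 7 for Ngfr (0.49) and Gfra1 (1.49), and from day 3 to 14 for Gdnf (1.61), Ngfr (3.73) and Gfra1 (3.60). The replicate block turned Gfra1 (1.11 from day 3 to 7, 2.59 from day 3 to 14), Gdnf (0.41) and Ngfr (2.33 from day 3 to 14). With 1 rat left out, transection at day 3 ran from -0.066 to 4.13 (Gdnf) and -1.54 to 6.74 (Ngfr), the transected step from day 3 to 7 from -5.31 to 0.46 (Ngfr) and -3.14 to 1.44 (Gfra1), and that from day 3 to 14 from -1.27 to 1.54 (Gdnf), -2.34 to 3.66 (Ngfr) and -1.22 to 3.52 (Gfra1). Over all 8 genes and comparisons, 40 of 684 fold changes with 1 rat left out and 24 of 591 under other settings changed sign.

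Counts over all genes moved further. DESeq2 called 3375 against 871 (intact, day 3 to 14), 2808 against 1002 (day 3 to 7), 325 against 3 (day 7 to 14), and 4852, 3217 and 1991 against 3396, 1524 and 2 in transected rats (day 3 to 14, 3 to 7 and 7 to 14). Library totals called 547 in intact rats from day 3 to 14, of which 65.4% were higher against 46.6%, and 1184 in transected rats, 26% against 37.8%. Ntf3 was at 3 counts or fewer in 7 of 23 rats and was left out of 5 comparisons, a limit of depth.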
